A study of Mus musculus with 4 samples.

Results

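Ribosomal protein genes were followed through sorted blood stem and progenitor cells of the mouse. The members are the 85 of 32285 gene rows, present in both count matrices, whose symbol is Rpl or Rps followed by a digit or is Rplp0, Rplp1 or Rplp2. Symbols that contain -ps and the Rps6k kinases were left out. Of the 85 rows, 32 name proteins of the small subunit and 52 proteins of the large subunit, and 1, Rps19bp1, names a protein that binds Rps19 and is no subunit itself. The cells were Lin-Sca+Kit+ bone marrow cells of 2 male Tppp3CreER LSLTdTomato mice aged 3 months. Both mice had received tamoxifen on postnatal days 0 and 3, so every group shares the genotype and the treatment. A cell can carry tdTomato only if the Cre of the Tppp3 allele was active in it or in a cell it descends from. Cells positive and cells negative for tdTomato were sorted from each mouse, which gave 4 tubes, each with its own hashtag antibody, and each tube was divided between the GEM-X and v3.1 chemistries of 10x Genomics. The sort is labelled both as 1 tube per gate and as 4 hashed samples, and each hashtag was read as 1 mouse and gate. The design compares the gates within a mouse and the chemistries within a tube, and the cells were also compared between cell classes and cell cycle states.

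The 2 matrices hold unique molecular identifiers (UMIs), 1 per captured RNA, mostly at its 3′ end, and counts were not corrected for transcript length. GEM-X gave 20511 barcodes with 234563105 gene UMIs, v3.1 gave 17755 with 178214937, and 0 barcodes were shared between the libraries. After filtering, 32330 cells with 1 hashtag remained. The positive tubes held 3867 and 3933 cells of mice 1 and 2, and the negative tubes 12144 and 12386. Median UMIs per cell were 9095 and 7731 in the positive tubes, against 9315 and 7855 for the negative tubes. Kit, the receptor used in the sort, was seen in 88.4% to 89.5% of cells of a tube and Ly6a, which encodes Sca-1, in 33.1% to 40.4%. The lineage gene Cd3e was seen in 0.0242% of cells at most. Levels are given as CPM, the UMIs of a gene in the summed cells of a tube after scaling every tube to the same total of gene UMIs. With 4 tubes of 2 mice, p-values measure the spread among these tubes.

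A ribosome is built from ribosomal RNAs and a fixed set of ribosomal proteins, so the genes of these proteins are expressed at high and closely balanced levels in every cell. Their mRNAs are known for a tract of C and T bases at the 5′ end, which places their translation under the control of mTOR, and loss of function of many of them causes Diamond-Blackfan anaemia in humans, a failure of red cell production. A few of the proteins have a second gene copy, a paralogue, with a slightly different sequence, and which copy a cell uses can vary between tissues. Blood stem cells are known for a low rate of protein synthesis compared with the progenitors they give rise to.

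The results turn on paralogue pairs, so the 3 pairs with a well-expressed second copy are shown first, 5′ to 3′, the Rps27 pair whole and the other pairs by the first 150 bases of their coding sequence, from the GENCODE M21 annotation of GRCm38. Capitals mark bases that differ from the other copy of the pair or that face a gap in it. Rps27 (chr3:90212522-90213651, minus strand) and Rps27l (chr9:66946086-66949516, plus strand) both encode the zinc finger protein of the small subunit, and 194 of 255 aligned bases (76.1%) are identical.
Rps27: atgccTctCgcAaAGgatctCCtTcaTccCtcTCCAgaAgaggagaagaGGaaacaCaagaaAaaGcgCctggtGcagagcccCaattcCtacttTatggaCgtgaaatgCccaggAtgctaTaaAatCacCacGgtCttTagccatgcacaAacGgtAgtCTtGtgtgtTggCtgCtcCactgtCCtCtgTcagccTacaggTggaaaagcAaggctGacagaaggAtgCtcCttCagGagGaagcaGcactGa
Rps27l: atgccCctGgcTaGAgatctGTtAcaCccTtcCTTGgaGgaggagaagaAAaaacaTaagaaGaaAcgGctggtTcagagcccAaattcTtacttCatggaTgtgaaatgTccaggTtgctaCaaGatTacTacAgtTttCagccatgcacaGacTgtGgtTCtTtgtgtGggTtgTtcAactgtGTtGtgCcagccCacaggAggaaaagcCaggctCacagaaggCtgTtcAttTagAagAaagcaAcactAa
Rpl36a (chrX:134585654-134588062, plus strand) and Rpl36al (chr12:69182731-69184083, minus strand) encode the large subunit protein beside the exit site of transfer RNA, with 282 of 321 bases (87.9%) identical.
Rpl36a: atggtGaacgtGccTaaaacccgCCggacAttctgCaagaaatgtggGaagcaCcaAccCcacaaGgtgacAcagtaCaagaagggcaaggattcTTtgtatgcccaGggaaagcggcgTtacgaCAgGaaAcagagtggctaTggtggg
Rpl36al: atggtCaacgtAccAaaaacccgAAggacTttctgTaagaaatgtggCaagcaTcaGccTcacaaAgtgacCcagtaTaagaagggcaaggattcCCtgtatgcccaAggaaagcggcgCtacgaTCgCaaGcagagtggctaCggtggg
Rpl22 (chr4:152325742-152334071, plus strand) is needed in mice for the development of αβ T cells. It and Rpl22l1 (chr3:28805436-28807424, plus strand) encode RNA-binding proteins of the large subunit, with 266 of 390 aligned bases (68.2%) identical.
Rpl22: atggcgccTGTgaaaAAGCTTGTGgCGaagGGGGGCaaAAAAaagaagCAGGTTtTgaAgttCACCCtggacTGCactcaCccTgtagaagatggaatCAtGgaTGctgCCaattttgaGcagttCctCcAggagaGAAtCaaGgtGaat
Rpl22l1: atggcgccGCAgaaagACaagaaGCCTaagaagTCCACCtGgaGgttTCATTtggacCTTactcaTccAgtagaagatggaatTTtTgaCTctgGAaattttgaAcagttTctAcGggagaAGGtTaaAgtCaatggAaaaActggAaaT

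Reads were counted at the 3′ end, and there the copies differ more than in their coding parts. Over the last 200 bases of the transcripts, identity was 47.8% for Rps27 and Rps27l, 61.8% for Rpl36a and Rpl36al and 54.0% for Rpl22 and Rpl22l1. Rps27rt, a retrogene on chromosome 9, has a coding sequence identical to that of Rps27 over all 255 bases and 71.7% identity over the last 200, so its counts and those of Rps27 may be divided uncertainly.

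The starts of the same 6 genes are shown to compare the C and T tract, as the 25 bases on either side of the RefSeq start on GRCm38.p6, on the gene's strand. Capitals mark each run of 8 or more bases that are C or T, searched on that strand alone.
Rps27 (chr3:90213624-90213673, minus strand): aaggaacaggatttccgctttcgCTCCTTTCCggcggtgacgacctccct
Rps27l (chr9:66946061-66946110, plus strand): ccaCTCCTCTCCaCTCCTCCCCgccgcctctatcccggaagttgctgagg
Rpl22l1 (chr3:28805483-28805532, plus strand): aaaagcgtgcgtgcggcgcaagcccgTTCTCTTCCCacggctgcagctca
Rpl22 (chr4:152325701-152325750, plus strand): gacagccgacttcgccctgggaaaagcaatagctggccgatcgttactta
Rpl36a (chrX:134585629-134585678, plus strand): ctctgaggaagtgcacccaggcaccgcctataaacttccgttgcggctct
Rpl36al (chr12:69184043-69184092, minus strand): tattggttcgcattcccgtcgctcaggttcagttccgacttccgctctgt
Such a run was found in Rps27, Rps27l and Rpl22l1 and not in the other 3 windows. RefSeq gave a start for 65 members, and 33 of them (50.8%) had such a run, against 5981 of 26960 genes (22.2%).

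Ribosomal protein mRNAs were abundant and of similar level. Of the 85 members, 82 had 10 CPM or more on average, 75 had 1000 or more, and the median over all members was 2303 CPM. Among the highest, Rps24, a Diamond-Blackfan anaemia gene, stood at 5672 ± 71.0 CPM (SD, n = 4 tubes), the large subunit gene Rpl13 at 5018 ± 75.4, Rps12 at 4307 ± 154 and Rpl23 at 4304 ± 24.4 CPM. Of the stalk, the flexible arm that brings translation factors to the ribosome, Rplp1 had 4125 ± 163, Rplp0 2326 ± 87.3 and Rplp2 2238 ± 64.3 CPM. Rpl11 and Rpl5, which with 5S RNA form the particle that restrains Mdm2, had 2637 ± 130 and 1971 ± 15.6 CPM.

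The second copies were all less abundant than their partners. Rpl22l1 had 717 CPM on average, Rpl36al 518 and Rps27l 255, against 1429 CPM for Rpl22, 1233 for Rpl36a and 1003 for Rps27. Rpl7l1, known from precursors of the large subunit, had 103 CPM and Rps27rt 22.8. The copies known for expression in single tissues were almost absent. Rpl39l, known from male germ cells, had 210 UMIs in all cells together, and Rpl3l, known from striated muscle, had 81. Rpl10l, known from the testis, had 0 UMIs among the 514960 of its pair, which allows a share of up to 0.000583%.

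The GEM-X library held a smaller share of ribosomal protein UMIs than the v3.1 library in every tube. In GEM-X the 85 genes made up 18.9% and 17.6% of gene UMIs in the positive tubes of mice 1 and 2. The negative tubes had 18.7% and 17.7%. In v3.1 the positive tubes reached 23.2% and 22.4%, and the negative tubes 23.1% and 22.4%. The chemistries did not overlap, and the differences of GEM-X minus v3.1 ran from -4.79 to -4.24 percentage points, with a mean of -4.52 ± 0.248 points (SD, n = 4; exact two-sided sign-flip test, with the smallest p that 4 tubes allow, which is above 0.05). The make-up of the cells moved little, with 51.1% of GEM-X and 54.5% of v3.1 cells in G1 and 22.6% and 21.8% in the class called HSC-like below. The Cell Ranger version went with the chemistry, 8.0.1 for GEM-X and 7.1.0 for v3.1. Each chemistry was a single library in which hashtags marked the tubes, so the spread over tubes leaves out any spread between libraries. The chemistry, the library and the version of the counting software cannot be told apart. Small subunit genes gave 43.9% of member UMIs in GEM-X and 45.1% in v3.1.

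**Figure D1:**
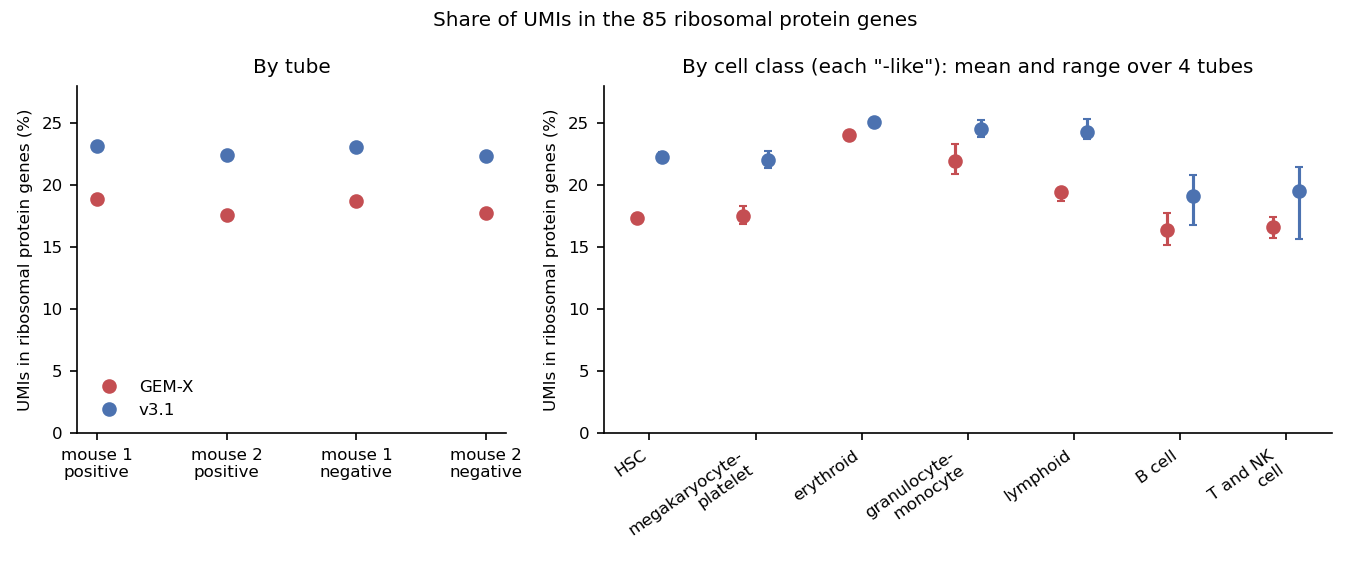
Share of gene UMIs (%) in the 85 ribosomal protein genes, left for each tube and chemistry and right by cell class, where points are means over 4 tubes and bars run from the lowest to the highest tube. GEM-X lay below v3.1 in every tube and class, and the erythroid-like class was the highest of the named classes in both chemistries.

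Between the gates the share did not differ beyond the spread. With both chemistries summed, members made up 20.6% and 19.5% of UMIs in the positive tubes of mice 1 and 2, while the negative tubes had 20.5% and 19.6%. The difference of positive minus negative was 0.173 points in mouse 1 and -0.107 points in mouse 2 (exact two-sided permutation test over 4 tubes, p = 1, where 0.333 is the smallest possible). The 2 tubes of mouse 1 were both above those of mouse 2.

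Cell classes were rebuilt by clustering without ribosomal, mitochondrial and cell cycle genes and named from marker lists, and 20418 cells (63.2%) stayed unnamed. Among the named classes, the share of ribosomal protein UMIs was highest in erythroid-like cells (167 cells), at 24.1% ± 0.312 in GEM-X and 25.1% ± 0.206 in v3.1 (SD over 4 tubes). Granulocyte-monocyte-like cells (432) followed with 21.98% ± 1.25 and 24.6% ± 0.636, and lymphoid-like progenitors (1912) had 19.4% ± 0.460 and 24.3% ± 0.694. Megakaryocyte-platelet-like cells (1784) and HSC-like cells (7345) were close together, at 17.5% ± 0.681 and 17.3% ± 0.331 in GEM-X and at 22.03% ± 0.689 and 22.3% ± 0.232 in v3.1. The few B cell-like (195) and T and NK cell-like cells (77) had the lowest means, at 16.4% ± 1.29 and 16.7% ± 0.852 in GEM-X. In v3.1 they had 19.2% ± 1.68 and 19.5% ± 2.68. Their GEM-X tubes overlapped the HSC-like and megakaryocyte-platelet-like tubes. In v3.1 they lay below the HSC-like tubes, and T and NK cell-like tubes overlapped megakaryocyte-platelet-like tubes. In GEM-X the tubes of the erythroid-like, granulocyte-monocyte-like, lymphoid-like and megakaryocyte-platelet-like classes did not overlap from one class to the next, and HSC-like overlapped megakaryocyte-platelet-like cells. In v3.1 the erythroid-like, granulocyte-monocyte-like and lymphoid-like tubes overlapped each other and lay above the HSC-like and megakaryocyte-platelet-like tubes. These are descriptions, since the classes come from the same cells.

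Depth moved with the class. The median cell had 34489 UMIs in the erythroid-like and 25454.5 in the granulocyte-monocyte-like class, against 6693 in HSC-like cells, and 1.20%, 5.09% and 92.5% of these cells were called G1. An erythroid-like cell held 8384 ribosomal protein UMIs on average, a granulocyte-monocyte-like cell 5730, a lymphoid-like cell 2060, a megakaryocyte-platelet-like cell 2104 and an HSC-like cell 1348. The part of depth and of the cell cycle in the order of the shares was not tested. One unnamed cluster stood apart, with 680 cells led by Lrrc4 and AY036118 and a median of 2560 UMIs per cell: its share was 3.496% in GEM-X and 5.32% in v3.1. It held 1.53% to 3.22% of the cells of a tube in 1 chemistry. Another unnamed cluster of 1288 cells, led by the immunoglobulin genes Igkc, Igha and Jchain, had shares of 22.2% in GEM-X and 26.3% in v3.1 at a median of 5520.5 UMIs per cell. Its v3.1 tubes, from 26.01% to 26.5%, all lay above the erythroid-like tubes, from 24.9% to 25.3%.

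The 82 members at 10 CPM or more had a median range over the 7 named classes of 0.55 on the log2(CPM + 1) scale, and 8 of them ranged over more than 1. All 9368 genes at 10 CPM or more had a median range of 1.38, but most are far less abundant, and counting error widens the range of low genes. At 1000 CPM or more, 75 members had a median range of 0.54 (median level 2469 CPM) and 47 other genes 1.27 (1351 CPM), a description in which levels are not matched. The highest class was erythroid-like for 50 members, granulocyte-monocyte-like for 15, lymphoid-like for 9 and HSC-like for 8. The lowest was B cell-like for 40, T and NK cell-like for 23, HSC-like for 15, megakaryocyte-platelet-like for 3 and erythroid-like for 1. The same counts over all genes are not given. The B cell-like and T and NK cell-like classes held only 195 and 77 cells.

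Rps27l, in mice and humans a target gene of p53, had the widest range of all, 1.94. It averaged 635 CPM in erythroid-like, 466 in granulocyte-monocyte-like and 275 in megakaryocyte-platelet-like cells, against 165 CPM in HSC-like cells. In GEM-X its tubes lay between 487 and 659 CPM in erythroid-like cells and between 135 and 142 in HSC-like cells, with no overlap. Its partner Rps27 did not share this order, since it was highest in HSC-like cells at 1136 CPM and had 945 CPM in erythroid-like cells. Rpl36al followed Rps27l among the subunit genes with a range of 1.32, at 995 CPM in erythroid-like and 979 in granulocyte-monocyte-like cells, against 399 in HSC-like cells. Its partner Rpl36a had 1443, 1436 and 1184 CPM in the same 3 classes.

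Other wide members were also erythroid-like high. Rps2, a protein of the mRNA entry channel, had 5490 CPM in erythroid-like against 2224 in HSC-like cells (range 1.30). Rpl41, the smallest ribosomal protein, had 3606 against 1568 CPM (1.20), and the stalk base Rplp0 had 4566 against 2104 CPM (1.12). Rps19bp1 had 71.8 against 29.9 CPM, with its lowest value in T and NK cell-like cells at 27.7 CPM (1.34). Among the narrowest were the small subunit genes Rps13, with a range of 0.32, and Rps20, with 0.28. Rps20, which contacts mRNA near the decoding site, had 4605 CPM in erythroid-like and 3936 CPM in HSC-like cells. Rps24 went the other way, lowest in erythroid-like cells at 4589 CPM and highest in lymphoid-like cells at 6813 CPM.

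**Figure D2:**
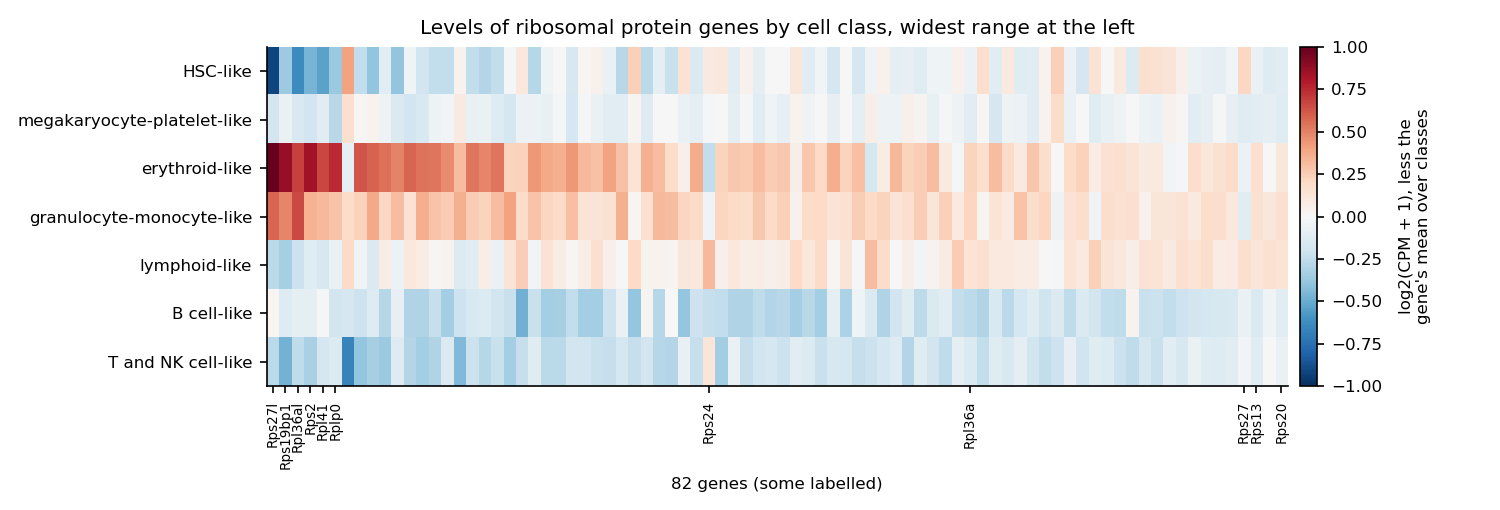
Level of each of 82 ribosomal protein genes (columns) in the 7 named classes (rows), as log2(CPM + 1) less the gene's mean over the classes, with red above and blue below the mean the widest genes at the left and some genes labelled. Rps27l, Rpl36al, Rps2, Rpl41 and Rplp0 are red in erythroid-like and blue in HSC-like cells, and the colours grow paler towards the right.

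Paralogue use followed the classes for 2 of the 3 pairs. Rps27l gave 39.5% ± 3.24 of the UMIs of Rps27 and Rps27l in erythroid-like, 33.0% ± 3.804 in granulocyte-monocyte-like, 22.4% ± 0.828 in megakaryocyte-platelet-like and 17.8% ± 1.22 in lymphoid-like cells, against 11.99% ± 0.361 in HSC-like cells (SD over 4 tubes). B cell-like cells had 25.05% ± 2.54 and T and NK cell-like cells 22.04% ± 5.18. No tube of the other 6 named classes reached down to the HSC-like tubes, which lay between 11.6% and 12.5%. One unnamed cluster, of 3115 cells, did, at 13.3% with tubes from 12.4% to 14.1%. The 2 HSC-like clusters differed, at 13.5% (tubes from 12.6% to 15.1%) and 10.2% (from 9.81% to 10.9%). The higher of them overlapped the T and NK cell-like tubes, which began at 14.5%. Rpl36al gave 40.4% ± 1.58 of its pair in erythroid-like, 39.8% ± 0.653 in granulocyte-monocyte-like, 31.2% ± 0.986 in megakaryocyte-platelet-like and 26.8% ± 1.74 in lymphoid-like cells, against 24.0% ± 0.418 in HSC-like cells. B cell-like cells had 35.7% ± 2.57 and T and NK cell-like cells 30.3% ± 2.70 for this pair. The lymphoid-like and HSC-like tubes overlapped, with 24.5% as the lowest lymphoid-like and the highest HSC-like value. The erythroid-like and granulocyte-monocyte-like tubes overlapped for Rpl36al and for Rps27l. Rpl22l1 moved little, with 30.3% ± 1.73 of its pair in erythroid-like, 33.0% ± 1.27 in granulocyte-monocyte-like, 33.9% ± 1.24 in megakaryocyte-platelet-like and 29.99% ± 2.03 in lymphoid-like cells, against 32.4% ± 1.65 in HSC-like cells, and these classes overlapped.

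Over all cells, paralogue use also differed between the called cell cycle states. Rps27l gave 13.9% ± 0.803 of its pair in G1 (17125 cells), 23.7% ± 0.831 in S (9811) and 25.3% ± 1.75 in G2/M (5394). In G1 the positive tubes had 14.8% and 13.3% and the negative tubes 14.4% and 13.2%; in S the positive tubes had 24.7% and 23.4% and the negative tubes 24.0% and 22.8%; and in G2/M the positive tubes had 27.4% and 23.1% and the negative tubes 25.7% and 25.1%. G1 lay apart from S and G2/M in all 4 tubes. The mean difference was 9.80 ± 0.198 points for S and 11.4 ± 1.18 points for G2/M (exact two-sided sign-flip test over 4 tubes, each with the smallest p possible). Rpl36al gave 26.3% ± 0.227 in G1, 30.9% ± 0.550 in S and 31.8% ± 1.17 in G2/M, 4.61 and 5.53 points above G1. Rpl22l1 gave 30.5% ± 2.30, 34.4% ± 2.25 and 36.1% ± 0.83, 3.96 and 5.65 points above G1. All 4 tubes were higher in S and in G2/M than in G1 for these 3 genes, which again gives the smallest p of the exact sign-flip test.

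Within HSC-like cells the difference between states was smaller for Rps27l and Rpl36al than over all cells, with no test of that contrast. In HSC-like cells Rps27l had 11.7% in G1 (6796 cells), 15.6% in S (432) and 14.9% in G2/M (117), and S was above G1 in 4 of 4 tubes by 3.89 ± 2.31 points. In lymphoid-like cells it had 14.3%, 21.4% and 18.5%, and in megakaryocyte-platelet-like cells 18.3%, 22.7% and 24.1%. Erythroid-like cells were almost all in S or G2/M, where Rps27l stood at 40.05% and 39.4%, above S cells of the HSC-like class. Rpl36al in HSC-like cells was only 1.22 ± 1.35 points higher in S than in G1, in 3 of 4 tubes. In other classes its S minus G1 difference was 3.08 points in lymphoid-like and 1.98 in megakaryocyte-platelet-like cells, but -7.03 ± 6.26 in granulocyte-monocyte-like cells (higher in 1 of 4 tubes, 22 cells in G1) and -13.9 ± 20.2 in B cell-like cells (0 of 4, 71 cells in G1). G2/M minus G1 was -3.87 and -11.2 points for Rpl36al in these last classes. Rpl22l1 behaved differently in HSC-like cells: it was at 38.0% in S against 31.9% in G1, higher by 6.05 ± 0.994 points and in 4 of 4 tubes, and its G2/M cells stood at 31.6%. The difference between classes in these state differences was not tested.

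**Figure D3:**
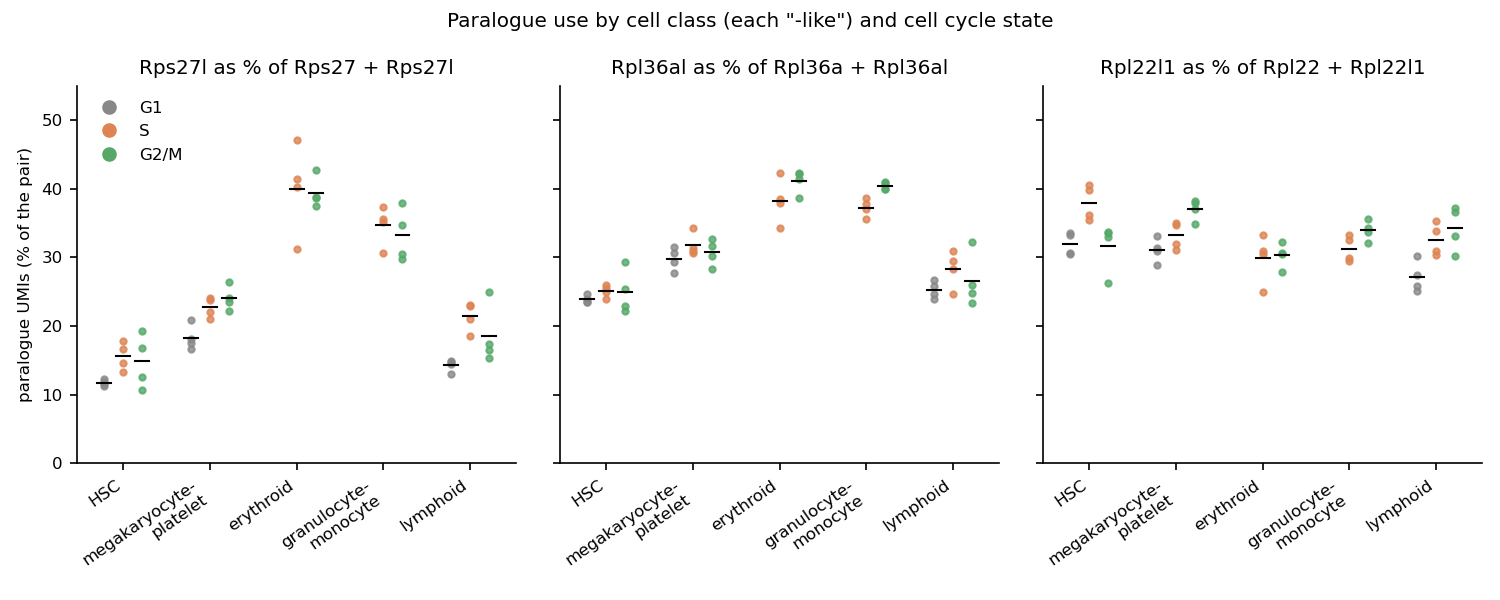
Share of the second copy in the UMIs of its pair (%), by cell class and called cycle state, with a point per tube and a bar at the mean. Groups with fewer than 40 cells are not drawn, nor are the B cell-like and T and NK cell-like classes. Of the classes drawn, Rps27l and Rpl36al stand lowest in HSC-like cells and highest in erythroid-like and granulocyte-monocyte-like cells. Rpl22l1 shows no such order, with its highest HSC-like value in S.

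The chemistries also differed in the same shares. Rps27l was 17.2% ± 1.26 of its pair in GEM-X and 25.3% ± 2.04 in v3.1, a mean difference of -8.07 ± 0.787 points within a tube. Rpl36al was 24.7% ± 0.683 and 36.6% ± 0.918, a difference of -11.9 ± 0.252 points, and Rpl22l1 was 32.2% ± 1.44 and 34.8% ± 1.86, a difference of -2.61 ± 0.480 points. Rpl7l1 went the other way, at 6.06% ± 0.151 of its pair with Rpl7 in GEM-X and 4.12% ± 0.171 in v3.1. Each of these differences had the same sign in 4 of 4 tubes, which gives the smallest p of the exact sign-flip test. The order of the classes held in both chemistries for Rps27l: of the pooled UMIs of a class, erythroid-like cells had 37.3% in GEM-X and 48.2% in v3.1 and HSC-like cells 9.81% and 15.6%. Rps27rt was 2.23% of its pair with Rps27 over all cells, at 1.66% in GEM-X and 3.27% in v3.1.

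Between the gates the shares of Rps27l, Rpl36al and Rpl22l1 differed in opposite directions in the 2 mice. Positive minus negative was 1.08 points in mouse 1 and -0.157 in mouse 2 for Rps27l, 1.01 and -0.680 for Rpl36al, and -0.0775 and 0.135 for Rpl22l1 (exact permutation test over 4 tubes, p = 1 for each). Rpl7l1 was 0.114 and 0.137 points higher in the positive tubes (exact permutation p = 0.667). These permutations do not keep the tubes of a mouse together, so a difference between the mice enters their p, and with 2 mice the within-mouse differences have no test that could pass 0.05.

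No ribosomal protein gene passed the test between the tdTomato gates. Across all cells, 0 of 84 members tested passed edgeR's quasi-likelihood test with mouse as a block and Benjamini-Hochberg adjustment over all genes, where 0.796% of 16586 genes did, 0.555% higher and 0.241% lower; the smallest adjusted p of a member was 0.849. At an unadjusted p under 0.05, 0 members and 1082 genes (6.52%) passed, and DESeq2 called 0 members. Members at 10 CPM or more had log2 fold changes between -0.0047 and 0.05, positive over negative, with a median of 0.01 and a median SE of 0.03. Rps24 had 5717 and 5617 CPM in the positive tubes of mice 1 and 2, against 5747 and 5605 CPM for the negative tubes. Rpl39l had the smallest unadjusted p, 0.0755 by edgeR, at 0.649 and 1.005 CPM in the positive tubes, against 0.380 and 0.852 CPM for the negative ones. Within HSC-like cells, 0 of 82 members passed the same test, where 0.0366% of 13658 genes did, 0.0220% higher and 0.0146% lower. Rpl36 alone had an unadjusted p under 0.05 there, with a log2 fold change of -0.04, and DESeq2 called 0 members. In edgeR's interaction test of gate and chemistry, 0 members passed. For the DESeq2 and interaction counts the share over all genes is not given.

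The cell cycle states differed in single members more than in the whole set. The members' share of UMIs was 20.1% ± 0.468 in G1, 20.3% ± 0.632 in S and 19.7% ± 0.703 in G2/M. S was 0.154 points above G1 (exact sign-flip test over 4 tubes, p = 0.25) and G2/M -0.416 points from it, lower in 4 of 4 tubes, with the smallest p of that test. Neither direction held throughout. S minus G1 was 0.531 points in GEM-X, higher in 4 of 4 tubes, and -0.132 points in v3.1, higher in 1 of 4. G2/M minus G1 was 0.192 points in GEM-X, higher in 3 of 4 tubes, and -1.14 points in v3.1, higher in 0 of 4. In HSC-like cells alone G2/M was 1.19 ± 0.623 points above G1, higher in 4 of 4 tubes, and S 0.295 ± 0.648 points, higher in 3 of 4. Cells held more ribosomal protein UMIs later in the cycle, 1438 on average in G1, 2393 in S and 3107 in G2/M, and their median total was 6989, 11225 and 15336 UMIs.

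Between S and G1, 73 of 83 members tested passed edgeR's quasi-likelihood test with tube as a block, 70 higher and 3 lower, where 75.3% of 14655 genes passed, 37.4% higher and 37.8% lower. The members' median log2 fold change was 0.15 and that of all genes -0.02. Between G2/M and G1, 63 of 83 passed, 60 higher and 3 lower, where 74.6% of 14338 genes passed, 37.0% higher and 37.6% lower, with a median of 0.18 for members and -0.02 for all genes. The direction of the set rested on the scaling. With totals alone, in place of trimmed-mean factors, the median of all genes moved to -0.16 in S and -0.22 in G2/M, and the members divided into 33 higher and 28 lower in S (of all genes 79.0% passed, 28.6% higher and 50.4% lower) and 26 higher and 35 lower in G2/M (78.1% passed, 24.6% higher and 53.5% lower), with medians of 0.01 and -0.01. Of the 70 members called higher in S, 19 had a lower CPM in S in all 4 tubes and 36 a higher one.

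Rps27l rose most in both states. It had 322 and 282 CPM in the positive and 308 and 281 in the negative S tubes of mice 1 and 2, and 197 and 175 CPM in the positive and 191 and 172 in the negative G1 tubes, with no overlap. Its log2 fold change was 0.84 ± 0.02 (SE) in S and 0.88 ± 0.04 in G2/M by edgeR, with adjusted p of 6.32e-16 and 6.99e-10. Rps27 fell, at 958 ± 25.2 CPM in S and 871 ± 9.89 in G2/M against 1136 ± 2.52 in G1 (SD, n = 4), with log2 fold changes of -0.11 and -0.19, and Rps27rt fell by 0.22 and 0.25. Rps9, a protein of the mRNA entry channel, was the other member that fell in both states, at 2880 CPM in S and 2706 in G2/M against 3382 in G1 (log2 -0.09 and -0.13). These 3 lay below G1 in all 4 tubes at both states.

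Rpl36al rose by 0.53 in S and 0.61 in G2/M on the log2 scale, at 565 and 576 CPM against 431 in G1. Rpl41 rose by 0.44 and 0.63. Rps19bp1, outside the ribosome, rose by 0.57 and 0.66. Rpl22l1 rose by 0.38 in S, at 756 CPM against 638 in G1, and Rps2 rose by 0.56 in G2/M, at 2962 CPM against 2297. All of these were higher in 4 of 4 tubes and passed edgeR's test, with adjusted p between 3.65e-13 for Rpl41 in S and 4.63e-08 for Rpl36al in G2/M. Rplp0, Rplp1 and Rplp2 of the stalk were called higher in S, at log2 values of 0.20 to 0.22, and Rpl11 and Rpl5 at 0.10 and 0.08, although CPM of Rpl11 and Rpl5 was lower in S in all 4 tubes and both were called lower with totals alone. Rpl5 did not pass in G2/M (0.06).

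**Figure D4:**
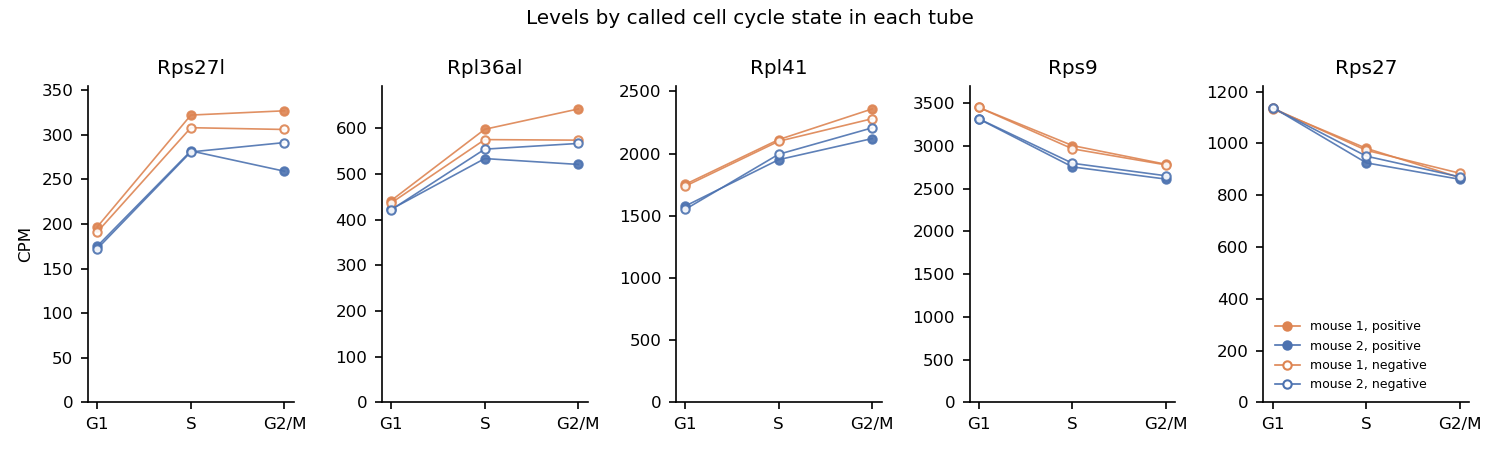
Level (CPM) of 5 ribosomal protein genes in cells called G1, S and G2/M, with 1 line per tube. Rps27l, Rpl36al and Rpl41 stand higher in S and G2/M than in G1 in every tube, and Rps9 and Rps27 stand lower.

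Within HSC-like cells alone, where 92.5% of cells were in G1, 21 members passed edgeR's test between S and G1, 20 higher and 1 lower, where 20.9% of 11491 genes passed, 12.8% higher and 8.09% lower. Rpl22l1 led with a log2 fold change of 0.38, followed by Rps27l (0.33), Rpl41 (0.21), Rpl35 (0.20) and Rps20 (0.20), and Rps27 was the member that fell (-0.13). Between G2/M and G1, with 117 cells in G2/M, 0 members passed, where 0.425% of 11059 genes did, 0.289% higher and 0.136% lower.

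The chemistries differed in nearly all members, in both directions. Between GEM-X and v3.1, 78 of 84 members tested passed edgeR's quasi-likelihood test with tube as a block, 19 higher and 59 lower, where 75.0% of 15218 genes passed, 38.4% higher and 36.6% lower. The members' median log2 fold change was -0.32, against -0.01 for all genes. With a single library per chemistry, these p-values measure the spread among tubes and not between libraries. Of the small subunit genes 8 were higher and 23 lower, and of the large subunit genes 11 and 35. The 4 members at 10 CPM or more that did not pass were Rpl14, Rpl12, Rps21 and Rpl13.

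Rpl4, which lines the exit tunnel of the nascent chain, was higher in GEM-X by the widest margin, with 1671 and 1552 CPM in the positive and 1660 and 1548 in the negative tubes, against 1041 and 906 in the positive and 1021 and 905 in the negative v3.1 tubes. Its log2 fold change was 0.76 ± 0.02 (edgeR, adjusted p = 2.05e-17). Rpl31, at the rim of that tunnel, had 1222 ± 57.7 CPM in GEM-X and 785 ± 35.7 in v3.1 (0.66), and Rps6, the target of the S6 kinases, had 2377 ± 80.8 and 1702 ± 75.8 (0.51). Rps23, of the decoding centre, and Rps27 followed at 0.35 each. All of these were higher in 4 of 4 tubes without overlap.

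Rps2 was lower in GEM-X by the widest margin, with 2074 and 1817 CPM in the positive and 2010 and 1858 in the negative tubes, against 3783 and 3477 in the positive and 3724 and 3513 in the negative v3.1 tubes. The log2 fold change was -0.88 ± 0.02 (edgeR, adjusted p = 2.13e-17). The X-linked Rps4x had 2901 ± 58.5 CPM in GEM-X and 5097 ± 23.0 in v3.1 (-0.79). Rpl9 followed at -0.75, Rps27rt at -0.67 and Rpl24, which bridges the subunits, at -0.63. Every one of these was lower in 4 of 4 tubes without overlap. Within the pairs the partners went apart, with Rps27 (0.35) and Rpl36a (0.24) higher in GEM-X and Rps27l (-0.35) and Rpl36al (-0.58) lower, while Rpl22 (-0.42) and Rpl22l1 (-0.58) were both lower. Of the stalk genes Rplp2 (0.11) and Rplp1 (0.10) were called higher and Rplp0 (-0.31) lower, and Rpl11 (-0.32) and Rpl5 (-0.07) were called lower. Members with a C and T run at the start had a median of -0.22 (32 genes) and members without one -0.37 (30 genes), in S both groups had a median of 0.15, and in G2/M the medians were 0.21 with a run and 0.15 without.

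**Figure D5:**
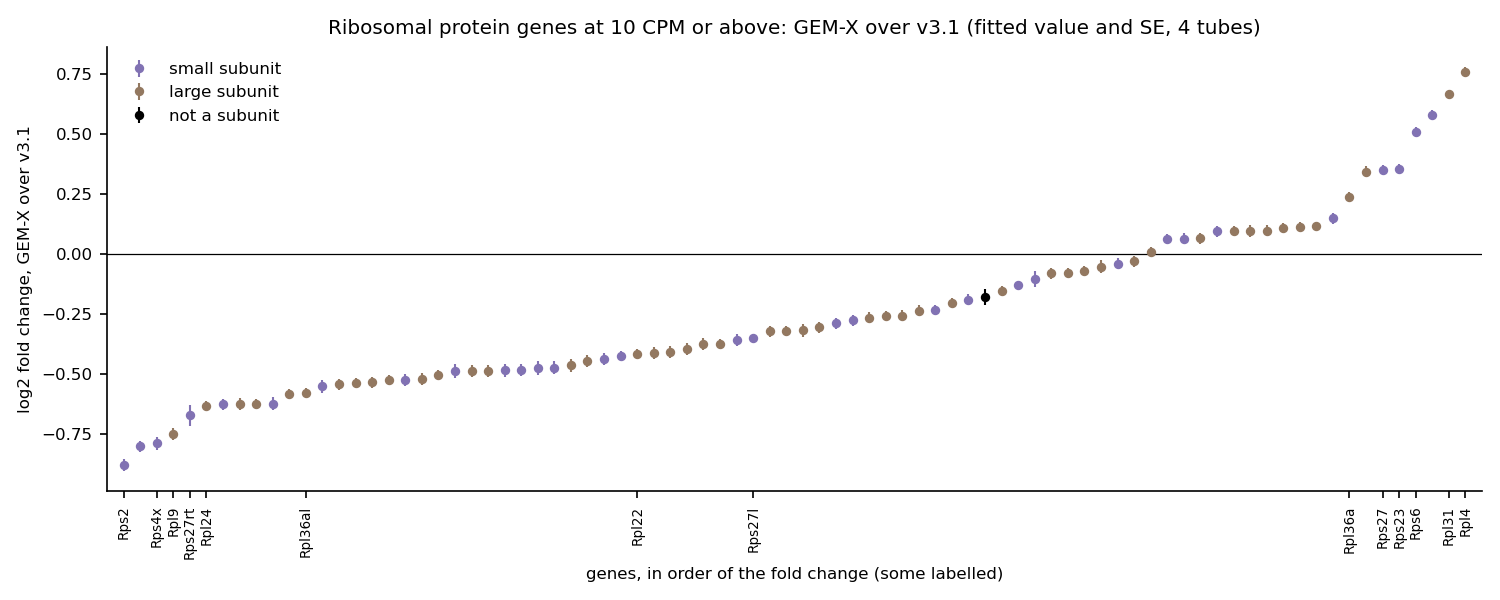
Fitted log2 fold change, GEM-X over v3.1, of the 82 ribosomal protein genes at 10 CPM or more, in order, with bars of 1 SE, colours by subunit and some genes labelled. The values run from -0.88 for Rps2 to 0.76 for Rpl4, with small and large subunit genes at both ends.

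Other genes of ribosome production and translation gave these counts by edgeR's test, each list chosen with results of these data known. For comparison, 37.4% of all genes were higher and 37.8% lower in S, and 37.0% and 37.6% in G2/M. The counts with totals alone, an alternative chosen for these lists after seeing the data, follow each count, since the scaling set the direction for the members. Of 30 ribosome biogenesis genes, 29 were higher and 1 lower in S (median log2 0.74; totals alone 28 and 1), and 28 were higher in G2/M (0.50; 22 and 3). Of 78 genes of the mitochondrial ribosome, 73 were higher and 2 lower in S (0.46; 69 and 4) and 76 and 1 in G2/M (0.63; 75 and 2). These lists kept a majority of higher genes under both scalings.

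The remaining lists depended on the scaling. Of 20 translation factors and other genes with a C and T tract, 16 were higher and 3 lower in S (0.23), against 11 and 6 with totals alone, and 15 were higher in G2/M (0.30), against 11 higher and 6 lower. Of 11 genes of RNA polymerase I, 7 were higher and 1 lower in S and 4 and 1 in G2/M, against 7 and 3 in S and 3 and 5 in G2/M with totals alone. Of 12 snoRNA host genes, 7 were higher and 3 lower in S and 5 and 4 in G2/M, against 7 and 5 in S and 5 and 6 in G2/M. Of 17 genes of the mTOR and Myc pathway, 10 were higher and 6 lower in S and 7 and 4 in G2/M, against 4 and 7 in S and 4 and 11 in G2/M. Among the members themselves, 18 of 21 Diamond-Blackfan anaemia genes were higher and 1 lower in S, beside 70 of 83 members higher, and 14 and 1 in G2/M, beside 60 of 83. With totals alone 8 of these 21 were higher and 8 lower in each state.

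The shares of UMIs did not follow the counts in every list. Ribosome biogenesis genes made up 0.451% of UMIs in G1, 0.700% in S and 0.604% in G2/M, and mitochondrial ribosome genes 0.428%, 0.554% and 0.576%. The translation factors made up 2.08%, 2.16% and 2.105%. The snoRNA host genes went the other way, with 0.170% in G1, 0.145% in S and 0.137% in G2/M. In S more of these genes were called higher than lower under both scalings.

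Between the chemistries, where 38.4% of all genes were higher and 36.6% lower in GEM-X, ribosome biogenesis genes were higher in 20 and lower in 7 cases (median log2 0.25), and mitochondrial ribosome genes higher in 18 and lower in 52 (-0.25). Translation factors counted 7 higher and 13 lower, RNA polymerase I genes 8 and 3, snoRNA host genes 7 and 5 and mTOR and Myc pathway genes 11 and 4. The Diamond-Blackfan anaemia genes among the members counted 6 and 15, beside 19 and 59 of the 84 members. Totals alone moved these counts by 3 genes at most. Of the 5 pseudogene rows, which held 0.00724% of UMIs, 3 were tested and all 3 were lower in GEM-X, while 1 was higher and 1 lower in S and likewise in G2/M; with totals alone 2 were lower in each state. None of these lists had a gene that passed between the gates, in all cells or in HSC-like cells. Of the lists that defined the cycle states, 2 of 54 G2/M genes and 0 of 43 G1/S genes were higher in the positive gate in all cells, and 0 of either in HSC-like cells.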

How the data were processed

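The deposited files are 2 matrices of whole-number UMI counts per gene and cell barcode, with hashtag counts as further rows. Per the file headers, Cell Ranger 8.0.1 made the GEM-X matrix and 7.1.0 the v3.1 matrix, the submitters' processing notes name Cell Ranger 7.0.0 and mm10, and the matrix of each chemistry was taken from its name and version. The members and lists used here were chosen with earlier results of these data known. Barcodes under 1000 genes or over 10% of UMIs from mitochondrial genes were dropped, and the rest kept (20140 GEM-X, 16721 v3.1). Tubes were called from the hashtags by a mixture model at a posterior of 0.5; 2091 and 2364 barcodes with several hashtags were removed as doublets, and 63 and 13 had none. Scrublet's own threshold marked 0% of cells and was not used. Cells were clustered with scanpy 1.11.5 on 2000 variable genes, 30 components and 30 neighbours by Leiden at resolution 1, without members, mitochondrial and cycle genes, and clusters were named from marker lists. Cycle states came from G1/S and G2/M gene scores without members, with 3089 cells within 0.05 of the cut. Counts were summed per tube and tested over all genes with edgeR 4.0.16 (R 4.3.3; TMM, filterByExpr, dispersion at least 1e-04, quasi-likelihood, Benjamini-Hochberg at 0.05), with the mouse as block between the gates, since the tubes of a mouse come from 1 animal, and the tube as block otherwise. DESeq2 1.42.0 was an alternative. The edgeR script was tested on simulated data. Single values had exact permutation tests with SciPy 1.17.1. Total gene UMIs per tube ran from 34833395 to 131548131, and counting intervals and floors (3 counts) cover counting error only. Named genes were every paralogue and, per contrast, the 6 highest and 6 lowest called members at 10 CPM or more with 1 sign in 4 tubes, and over classes the 6 widest and the 3 narrowest; others were named after their values were seen. Alternatives changed the scaling, filters, block, tool, phase calling and the libraries or cells used. Some genes that this rule names are not reported here. Rps4l was not analysed here.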

Additional observations from a re-analysis of the deposited data

Results flagged for a closer look

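Among 81 groups of 4 tubes examined, 1 held a tube far from the rest, where chance gives about 1 in 20. Rpl39l, the paralogue of Rpl39 known from male germ cells, made up 0.0197% of its pair in G2/M cells of the lowest tube, against 0.0354% to 0.0361% in the other tubes. With 210 UMIs of Rpl39l in all cells, the value rests on few counts.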

How the results depend on the processing

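Of 313 values under alternatives that answer a comparison, 281 were counts of called members near the main count or shares that moved within the spread. Near counts could still differ, as with 63 members between chemistries without the replicate block against 78 with it. Of 748 values for single genes, 702 kept their side of the threshold, and their direction if called, or moved within the spread. With totals alone, 33 members were higher and 28 lower in S and 26 and 35 in G2/M, and Rpl22 (-0.017 in S, -0.088 in G2/M) and Rpl7l1 (-0.044 in S) reversed. The shift of the all-gene median was -0.14 in S, -0.20 in G2/M and -0.03 between chemistries. In HSC-like cells alone, 21 members were called in S (20 higher, 1 lower) and 0 in G2/M (0 higher, 0 lower), and values reversed for Rpl22 in S (-0.012) and for Rpl7l1 (-0.079), Rps9 (0.051) and Rps27rt (0.36) in G2/M; fewer cells enter there. In v3.1 alone 5 members were lower in S and 16 in G2/M, where Rpl22 was -0.015, and with phases called on cells thinned to 3000 UMIs 5 were lower in G2/M. Alternatives chosen after seeing the data gave these differences from G1. The member share was 0.531 (S) and 0.192 (G2/M) points in GEM-X, -0.132 and -1.14 in v3.1, and 1.19 (G2/M) in HSC-like cells. Rps27l use in S was 9.23 in GEM-X, 11.0 in v3.1 and 3.89 in HSC-like cells, where G2/M gave 3.15. Rpl36al use in S was 5.72 in v3.1 and 1.22 in HSC-like cells, where G2/M gave 1.04. Rpl22l1 use in S was 3.57 in GEM-X, 4.57 in v3.1 and 6.05 in HSC-like cells, where G2/M gave -0.335. Without mitochondrial genes and Malat1 in the denominator, the share differed by -4.90 points between chemistries. With clusters from totals without members, the HSC-like class held 4585 cells in place of 7345. Its share over the chemistries was 20.2% in place of 19.8%. The lymphoid-like class held 3174 cells in place of 1912. The cause of these changes was not tested. Without the replicate block, 63 members were called between chemistries (9 higher, 54 lower), 52 in S (50 and 2), 51 in G2/M (48 and 3) and 0 between the gates. Leaving out 1 tube or mouse at a time gave 74 to 79 members between chemistries and 0 between gates. It gave 72 to 76 in S and 60 to 68 in G2/M. The share over all genes is not given for the counts without the block or with a tube or mouse left out. Nor is it given for those in v3.1 alone or on thinned cells. In the main fits 75.0% of all genes passed between chemistries, 75.3% in S, 74.6% in G2/M and 0.796% between the gates.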

Other observations

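The mice differed in single members more than the gates did, with 2 mice and no test. Rps15a, a protein of the small subunit body, had 3066 CPM in the positive and 3051 in the negative tube of mouse 1, against 2378 and 2398 CPM in mouse 2, a log2 difference of 0.36. In HSC-like cells alone it had 2830 and 2873 CPM in mouse 1 and 2362 and 2380 in mouse 2. Both chemistries showed it, with 3053 and 3007 CPM in GEM-X and 3085 and 3117 in v3.1 for mouse 1, against 2233 and 2241 in GEM-X and 2596 and 2628 in v3.1 for mouse 2. The next widest was Rps27l at 0.22, but in HSC-like cells it differed by 0.061, and there Rps13 followed Rps15a at 0.22. The median log2 difference of mouse 1 over mouse 2 was 0.07 over 82 members, against 0.03 in HSC-like cells. The G1 share was 48.1% and 49.0% of cells in the tubes of mouse 1 and 55.9% and 57.4% in mouse 2, and its part in these values was not tested.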
